A study of Saccharomyces cerevisiae with 21 samples.

Results

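The comparison sets the last 3 libraries of a yeast time course, from 180, 190 and 200 min after release, against the 3 libraries from 130, 140 and 150 min. These are 6 of the 21 libraries of the series, and they were chosen by their labelled time alone. The question is what still differed at the end of the course in cells without a normal set of B-type cyclins. Expression is given in FPKM, a fragment count divided by transcript length and library size, and 6220 loci with a mean of at least 1 FPKM over the 6 libraries were tested.

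All 21 libraries came from Saccharomyces cerevisiae cells of 1 genotype, sampled every 10 min from 0 to 200 min. The background is BF264-15D, MATa, with bar1::hphMX4 and with arg4. The B-type cyclin genes carry the disruptions clb1::URA3 and clb2::LEU2, then clb3::TRP1 and clb4::HIS2, and finally clb5::ARG4 with clb6::ADE1, and the strain also holds PGAL1-CLB1::LEU2, a copy of CLB1 under the galactose-inducible GAL1 promoter. Cells grown in YEPGalactose were held at the G1 arrest by alpha-factor (30 ng/ml), the pheromone of the opposite mating type, over 160 min, and were then released at 30 °C into YEPDextrose, in which the GAL1 promoter is repressed. There was 1 library per time point, and the labels name no separate cultures, so the 3 libraries of a window are neighbouring times and not replicates. The p-values of the window comparisons measure the spread between neighbouring times. All p-values here are too small as statements about separate cultures. An exact permutation of 3 libraries against 3 cannot give a two-sided p below 0.1.

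B-type cyclins switch on the kinase Cdk1 for DNA replication and mitosis, and the mitotic ones also shut off the transcription of G1. Budding yeast cells without them pass Start, form buds and stay arrested before replication, while part of the cell-cycle transcription programme goes on. The lists described here cover that programme and the metabolism, stress, mating and cell wall genes that a culture growing on dextrose uses.

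Among the 44 gene lists, the one with the highest median difference at the end of the course was that of peroxide and thiol defence, in which 10 of 21 genes had all 3 late values above all 3 earlier ones. Stress genes of the Msn2 and Msn4 factors, trehalose and glycogen genes, some cell wall genes and some S phase genes were also higher. Glucose-induced hexose transporter genes, part of the sterol and fatty acid genes, and mating genes were lower. The lowest list median was that of the lysine synthesis genes, -0.15, with 2 of 10 genes lower without overlap. Over all loci, 906 (14.6%) had the 3 values of 180 to 200 min above the 3 of 130 to 150 min, and 736 (11.8%) had them below. In bulk RNA, fewer cells with a transcript and less of it per cell cannot be told apart.

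The differences were small. The median absolute log2 difference over all loci was 0.13, its 95th percentile was 0.55, and 84 loci (1.35%) differed by at least 1, of which 53 were higher and 31 lower. In limma's test of the 6 libraries, 1 of 6220 loci (0.0161%) passed an adjusted p of 0.05, against 1220 (19.6%) at an unadjusted p of 0.05. The called locus was snR35, a small nucleolar RNA gene of 204 bp (YNCO0024C, chromosome XV, 759326 to 759529, build R64). It had 24.5, 27.6 and 29.3 FPKM at 180, 190 and 200 min, against 12.2, 11.2 and 12.4 FPKM at 130, 140 and 150 min. The windows were far apart and the values of 20.1 and 23.8 FPKM at 160 and 170 min lay between them. The log2 difference of snR35 was 1.12 (SE 0.09, 95% interval 0.91 to 1.33, adjusted p = 0.0423). The call is not firm, because no higher locus was called without 150, without 190 or without 200 min, and snR35 had an adjusted p of 0.0753 in a fit of 12 libraries sharing an estimate of the spread, which called 96 of 6206 loci (1.55%), 70 higher (1.13%) and 26 lower (0.419%).

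A line fitted through the 8 libraries from 130 to 200 min uses the times between the windows as well. Its slope, given as a log2 change per 50 min, passed an adjusted p of 0.05 for 594 of 6227 loci (9.54%), of which 338 (5.43%) were positive and 256 (4.11%) negative. The p-values of the slope measure the scatter around that line. They treat the 8 libraries as independent, although these are neighbouring times of 1 course, so a smooth drift makes them small. All 594 had the same sign in the comparison of the windows, and in 565 of them the windows did not overlap. That is no separate support, since 6 of the 8 libraries are those of the windows. The 160 and 170 min libraries are in neither window. Their mean lay between the window means for 776 of the 906 higher loci (85.7%) and for 608 of the 736 lower loci (82.6%). The slope count rests on single libraries and on the scaling. It was 962 without 180 min (15.4%, with 8.5% positive and 6.95% negative), 874 after a correction for gene length (15.1%, with 7.4% positive and 7.71% negative) and 119 without 140 min, and it was 53 when the libraries were rescaled to a common sum of FPKM. Of the 594 calls, 110 also passed whichever of the 8 libraries was left out, and 118 passed without 140 min, 293 without 190 min and 585 without 180 min. Among the genes named below whose slope passed, those of the 110 are CLB6, PRX1, TSA1, AHP1, TSA2, TRR1, SOD2, GRE2, TMA10, SOL4, TSL1, GSY2, HPF1, PHO3, HXT1, HMG1, ERG26, ERG28, ALD6, CHA1, SRD1, TIS11, THI7, SNO1, DDR48, DBP9, LYS9 and NDJ1. The other slope calls given below were each lost without at least 1 library.

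The libraries from 180 and 190 min stood apart in opposite directions. FPKM summed to 1212671 at 180 min and 1550886 at 190 min, against 1433608 at 200 min and 1321006 to 1409356 at 130 to 150 min. Genes under 300 bp (320 loci) lay at a median of -0.27 from their mean over the 6 libraries at 180 min, at 0.33 at 190 min and at -0.03 at 200 min, against -0.04, -0.08 and 0.11 at 130, 140 and 150 min. Genes of at least 1000 bp (3461 loci) moved the other way, by 0.04 at 180 min and -0.05 at 190 min. Without 180 min, the comparison of the windows called 292 of 6217 loci (4.7%), 190 higher (3.06%) and 102 lower (1.64%), and 1885 (30.3%) at an unadjusted p of 0.05. That count leans on 190 min, since without 190 min the comparison called 1 of 6211 loci, and 1054 at an unadjusted p of 0.05. With all 6 libraries and genes of at least 300 bp alone it called 41. Read counts were not used here. Length-scaled values within a preset low range, taken as those of 1 fragment, put about 17.7 to 21.7 fragments behind 1 FPKM at 1000 bp. They come from 2 to 12 genes per library, and the preset range bounds the result, so it is only a rough guide.

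**Figure D1:**
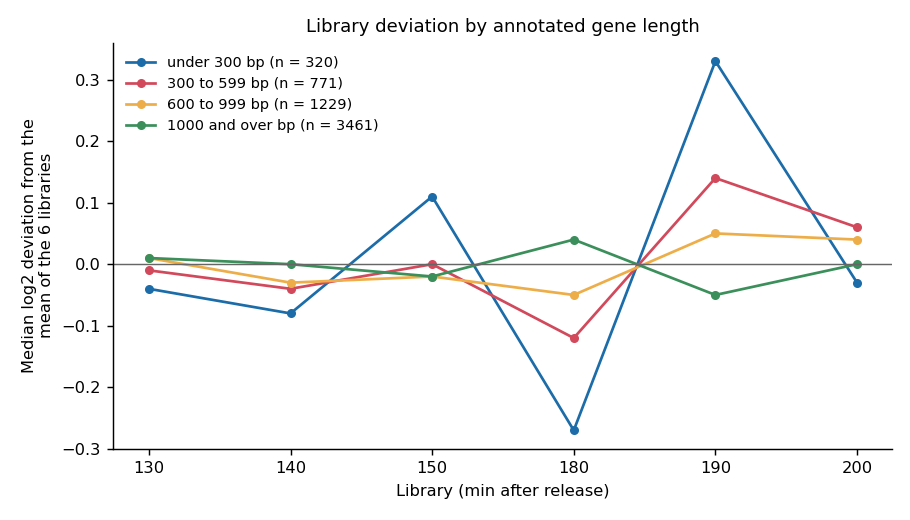
Median log2 deviation of each of the 6 libraries from a gene's mean over them, by annotated gene length, with the libraries in order of time. The line for genes under 300 bp lies at -0.27 at 180 min and 0.33 at 190 min, while the line for genes of at least 1000 bp stays between -0.05 and 0.04.

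The cyclin loci themselves come first, as the check of the labels. CLB4 was listed at 0 in these 6 libraries. CLB1 had 105, 96.2 and 90.4 FPKM at 180, 190 and 200 min, against 96.3, 104 and 94.2 FPKM at 130, 140 and 150 min, and CLB2, CLB3 and CLB5 also had overlapping windows, with log2 differences of -0.17, 0.01 and 0.02. The labels do not say how much of each coding sequence the disruptions leave, and reads of CLB1 may also come from the GAL1-driven copy, so values above 0 check nothing about the loss of the proteins. CLB6, one of the S phase cyclin genes, had 41.6, 52.0 and 52.7 FPKM at 180 to 200 min, against 19.6, 32.1 and 39.6 FPKM at 130 to 150 min. Its 3 late values were above all earlier ones of the comparison (0.71, 95% interval 0.12 to 1.30, adjusted p = 0.192), and its slope of 0.80 passed (adjusted p = 0.0154). None of the 6 marker genes of the disruptions (URA3, LEU2, TRP1, HIS2, ARG4 and ADE1) had windows that did not overlap. GAL1 itself had 87.1, 94.7 and 102 FPKM in the late window, against 116, 104 and 105 FPKM in the earlier one.

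The oxidative defence list holds 21 genes of peroxide, superoxide and thiol defence that the factor Yap1 is known to serve or that work beside it. Of these, 10 had higher windows without overlap and none a lower one, and the slope of 11 passed, all positive, where 5.43% of all loci had a positive call. The median log2 difference of the list was 0.51 (range -0.07 to 1.56), against 0.01 over all loci. The count of positive slopes was 12 without 180 min, 8 without 190 min, 11 after a correction for gene length and 8 with a common sum.

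PRX1, the mitochondrial peroxiredoxin gene (YBL064C, chromosome II, 100371 to 101156), had the largest difference among the list's genes without overlap. It had 356, 459 and 552 FPKM at 180, 190 and 200 min, against 131, 154 and 222 FPKM at 130, 140 and 150 min, with 292 and 382 FPKM at 160 and 170 min. The windows were far apart, with every late value well above every earlier one. The ratio of the window means on the log scale was 2.71, a log2 difference of 1.44 (SE 0.23, 95% interval 0.89 to 1.99, adjusted p = 0.0756), and the slope of 1.47 passed (adjusted p = 0.00198). From 0 to 120 min PRX1 had stayed between 39.2 FPKM at 40 min and 118 FPKM at 120 min, so every value from 130 min on was above that range.

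TSA1 and AHP1 were among the most abundant transcripts of the list. TSA1 (YML028W, chromosome XIII, 220138 to 220728), the main cytoplasmic peroxiredoxin gene, had 3616, 4327 and 5746 FPKM in the late window, against 2443, 2199 and 2526 FPKM in the earlier one. AHP1 (YLR109W, chromosome XII, 368781 to 369311), which codes for an alkyl hydroperoxide reductase, had 5117, 6441 and 6357 FPKM, against 3156, 3445 and 4150 FPKM. The windows of both were separate, with log2 differences of 0.91 (adjusted p = 0.1) and 0.74 (adjusted p = 0.108), and both slopes passed (adjusted p = 0.00701 and 0.00623). TSA2, the rare relative of TSA1, had 44.2, 59.6 and 66.8 FPKM, against 32.6, 27.8 and 40.2 FPKM, a difference of 0.74 with a slope that passed (adjusted p = 0.00768). TSA1 and TSA2 are close copies, so reads that fit both could have been split between them.

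The thioredoxin pair that recycles these enzymes was higher as well. TRX2, a cytoplasmic thioredoxin gene (chromosome VII, 912913 to 913227), had 3796, 4867 and 4187 FPKM at 180, 190 and 200 min, against 1776, 2245 and 2961 FPKM at 130, 140 and 150 min. TRR1, the thioredoxin reductase gene (chromosome IV, 1183299 to 1184258), had 212, 287 and 324 FPKM, against 141, 141 and 188 FPKM. Both windows were separate, by 0.90 and 0.80 on the log2 scale, and both slopes passed (adjusted p = 0.0168 and 0.00633). SRX1, the sulfiredoxin that repairs overoxidised peroxiredoxins, was low and uneven, with 5.87, 37.8 and 21.4 FPKM, against 2.82, 3.98 and 11.2 FPKM. Its windows overlapped through the 180 min value, and its slope (1.82, adjusted p = 0.0495) did not pass without 190 min (adjusted p = 0.111). SRX1 is a gene of 384 bp, of the class that lay at -0.12 at 180 min and 0.14 at 190 min, and its slope was 1.76 after the length correction (adjusted p = 0.0283).

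Other members covered superoxide and reductases. SOD2, the mitochondrial superoxide dismutase gene, had 138, 202 and 193 FPKM, against 107, 97.8 and 107 FPKM, and its slope passed (adjusted p = 0.00828). GRE2, a methylglyoxal reductase gene (chromosome XV, 43694 to 44722), had 277, 292 and 315 FPKM, against 123, 155 and 189 FPKM, a difference of 0.94 (adjusted p = 0.0756) whose slope passed (adjusted p = 0.00633). Both had separate windows, as had OYE3 and GTT2, a flavin reductase and a glutathione transferase gene whose slopes passed at adjusted p = 0.0392 and 0.0432. GPX2 and the copper-zinc superoxide dismutase gene SOD1 had differences of 0.75 and 0.51 with overlapping windows. Of the remaining 8 genes, CCP1 had a difference of 0.32 and the others lay between -0.07 and 0.07. They include YAP1 itself (109, 92.4 and 92.8 FPKM, against 90.4, 98.2 and 93.4 FPKM), the glutathione genes GSH1 (0.07) and GLR1 (-0.02), and the exporters FLR1 (-0.07), ATR1 (0.06) and YCF1 (0.02).

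**Figure D2:**
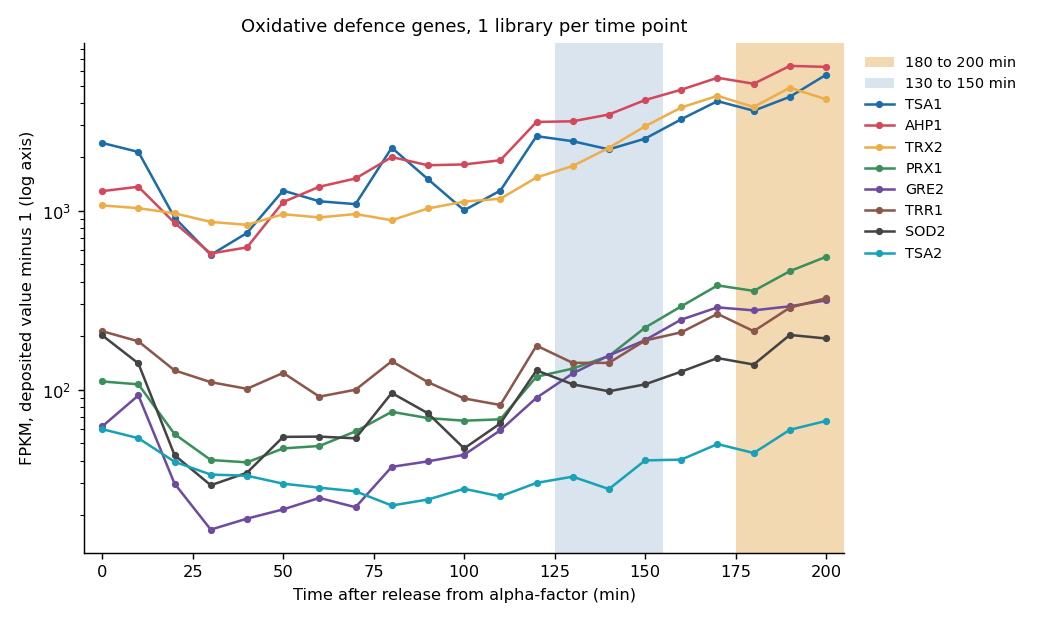
FPKM of 8 oxidative defence genes at all 21 time points, 1 library each, on a log axis, with the windows of 180 to 200 min and 130 to 150 min shaded. All 8 lie higher in the late window, and PRX1 reaches 552 FPKM at 200 min.

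The promoter letters show which of these genes carry a Yap1 motif. TTACTAA or TGACTAA, on either strand, occurred in the 500 bases before the coding start of 16 of the 21 genes (76.2%), against 1026 of 6008 promoters of protein-coding genes (17.1%). The list was chosen as genes that Yap1 serves or that work beside it, so the higher share is no separate support. The match did not separate the members: 8 of the 11 genes whose slope passed had one, and so had 8 of the 10 others. PRX1, TSA1 and GRE2 had none in this window. The stretches below come from the R64 genome in RefSeq and are read in the direction of the gene, with the motif or its reverse complement in capitals. The first 6 belong to genes whose slope passed, and the last pair belongs to GLR1 and ATR1, which hold a match and differed by less than 0.1.
TRX2 chrVII:913390-913419 (minus strand): tggctcttttcTTACTAAgcgcgttcagtt
TRR1 chrIV:1183096-1183125 (plus strand): ttagcttctccTTAGTCAtggagaaaaaaa
TSA2 chrIV:1366117-1366146 (minus strand): agttttttttgTTAGTAAgcgctacgacga
AHP1 chrXII:368281-368310 (plus strand): tgtctaTTAGTAAtcaagaaaagaacccta
SOD2 chrVIII:123838-123867 (minus strand): ggttgagctgaTTACTAAttgctattatca
SRX1 chrXI:277969-277998 (plus strand): tttttccctgaTTAGTAAgctacatcattt
GLR1 chrXVI:375300-375329 (plus strand): tttgacgtcacTTAGTAAgcacgacccttg
ATR1 chrXIII:37776-37805 (plus strand): taatatagtgaTTACTAAtggaatggcggt

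General stress genes were higher by less. Msn2 and Msn4 are the zinc-finger factors of the general stress response, and of 24 genes listed as theirs 12 had higher windows without overlap and none lower. The slope of 8 passed, all positive (10 without 180 min, 7 without 190 min and 4 with a common sum), and the median log2 difference was 0.27. The shares of all loci were 14.6% higher and 11.8% lower without overlap, and 5.43% with a positive slope call. TMA10, a ribosome-associated protein gene, had 451, 749 and 746 FPKM at 180, 190 and 200 min, against 357, 376 and 392 FPKM at 130, 140 and 150 min. The late values were all higher, most at 190 and 200 min, and the slope of 0.78 passed (adjusted p = 0.0138). SOL4, a phosphogluconolactonase gene, had 7.88, 11.6 and 11.6 FPKM, against 6.14, 5.53 and 6.39 FPKM (slope 0.68, adjusted p = 0.012). TMA10 and SOL4 had been higher at 0 min, at 1191 and 31.6 FPKM. HSP12, a membrane-associated small heat shock protein gene of 330 bp, had 157, 271 and 267 FPKM, against 132, 140 and 172 FPKM. Its windows overlapped through the low value at 180 min, and its slope of 0.69 passed (adjusted p = 0.0261). The small heat shock gene HSP26 (slope 0.41), the chaperone-like HSP31 (0.37), GAD1 for glutamate decarboxylase (0.39), MSC1 (0.26) and TFS1 (0.69) made up the other slope calls.

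The letters AGGGG, the core that Msn2 and Msn4 bind, occurred on either strand in 155 of the 309 promoters of protein-coding genes with a positive slope call (50.2%) and in 66 of the 247 with a negative one (26.7%), against 2047 of all 6008 (34.1%). They occurred in 23 of the 24 genes of the stress list, which was chosen as genes of these factors, so that count is no separate support.

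Reserve carbohydrate genes had the same tendency. Among 18 trehalose and glycogen genes, 9 had higher windows without overlap and none had lower ones, against 14.6% and 11.8% of all loci. In this list 3 slopes passed, all positive (6 without 180 min, none with a common sum), where 5.43% of all loci had a positive call. The median difference was 0.19. TSL1, a regulatory subunit of trehalose synthase, had 38.9, 34.4 and 45.4 FPKM in the late window, against 26.7, 27.1 and 26.8 FPKM in the earlier one, a separation of 0.53 (adjusted p = 0.0893) with a slope that passed (adjusted p = 0.0122). The slopes of both glycogen synthase genes passed as well: GSY2 had 18.6, 20.7 and 25.5 FPKM, against 14.7, 15 and 15.3 FPKM, and GSY1 had 8.54, 9.08 and 11.6 FPKM, against 7.45, 6.34 and 6.53 FPKM. TSL1 and GSY2 had been higher at 0 min, at 101 and 87.2 FPKM.

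Genes of the cell surface differed in both directions. Of 25 cell wall mannoprotein genes, 6 had higher and 2 lower windows without overlap, against 14.6% and 11.8% of all loci. The list median was 0.24. Of its slopes 2 passed, both positive, where 5.43% of all loci had a positive call, and 7 without 180 min, against 8.5%. HPF1, a heavily glycosylated mannoprotein gene (chromosome XV, 28703 to 31606), had 67.6, 95.1 and 134 FPKM at 180, 190 and 200 min, against 46.7, 44 and 51.8 FPKM at 130, 140 and 150 min. SED1, a major wall protein gene of stationary-phase cells, had 4954, 6089 and 7727 FPKM, against 3889, 3692 and 4309 FPKM. In both the highest value was that of 200 min, and both slopes passed (1.04, adjusted p = 0.00569, and 0.68, adjusted p = 0.012). CWP1, another wall mannoprotein gene, was lower without overlap, at 470, 559 and 652 FPKM, against 789, 699 and 708 FPKM, although its slope did not pass (adjusted p = 0.148). Among 18 genes of the cell wall integrity pathway and its targets, 7 were higher and 2 lower without overlap, against the same 14.6% and 11.8%. The slopes of SED1, BGL2 for an endo-glucanase (0.45) and CRH1 for a chitin transglycosylase (0.33) passed.

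**Figure D3:**
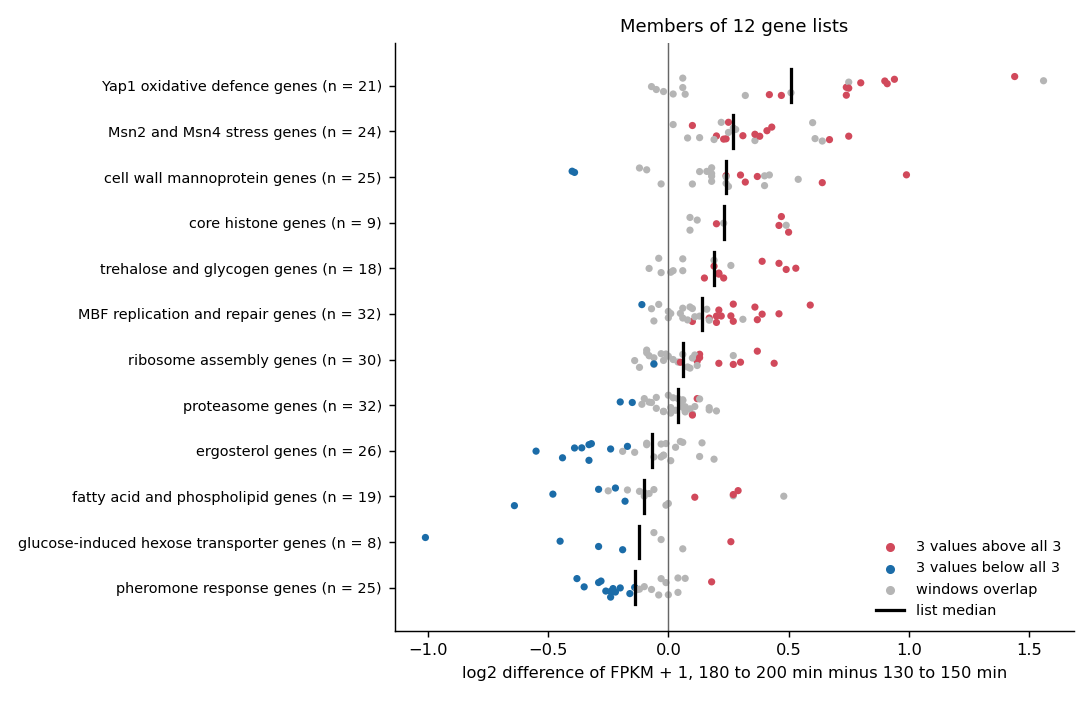
Log2 difference of FPKM plus 1 between 180 to 200 min and 130 to 150 min for each tested member of 12 lists. Colours mark members whose 3 late values are all above or all below the 3 earlier ones, grey marks overlap, and black bars are list medians, from 0.51 for the oxidative defence genes to -0.14 for the pheromone response genes.

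Genes of DNA replication were modestly higher in part. MBF is the G1/S factor of replication and repair genes, and of its 32 listed targets 14 had higher windows without overlap and 1 a lower one. The slopes of 6 passed, all positive (8 without 180 min, 4 without 190 min, none with a common sum), and the median difference was 0.14. The shares of all loci were 14.6% higher and 11.8% lower without overlap, and 5.43% with a positive slope call. TOS4, a forkhead-domain gene (chromosome XII, 520543 to 522012), had 95, 108 and 93.8 FPKM at 180, 190 and 200 min, against 69.5, 70.7 and 74.2 FPKM at 130, 140 and 150 min. ASF1, a histone chaperone gene, had 65.6, 86.9 and 62.9 FPKM, against 48.4, 44.6 and 47.3 FPKM. Both were separate (0.46, adjusted p = 0.0756, and 0.59, adjusted p = 0.111) and both slopes passed (adjusted p = 0.0121 and 0.0374), the one of ASF1 not without 190 min (adjusted p = 0.0603). The slopes of POL30 for the replication clamp PCNA, the checkpoint kinase gene RAD53, the thymidylate synthase gene CDC21 and the primase gene PRI2 also passed, between 0.27 and 0.42. The MCM helicase gene MCM5, in the list of genes with early cell-cycle boxes, had 14, 13.1 and 13.5 FPKM, against 9.11, 9.44 and 10.3 FPKM (slope adjusted p = 0.0131). Of the 10 genes of that list, 3 were higher and 2 lower without overlap, against 14.6% and 11.8% of all loci. In that list 1 passing slope was positive, that of MCM5, and 1 negative, that of FAR1. The MBF motif ACGCGT occurred in 33 of the 309 promoters with a positive slope call (10.7%) and in 5 of the 247 with a negative one (2.02%), against 326 of 6008 (5.43%).

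Of 23 genes of SBF, the other G1/S factor, 7 were higher and 2 lower without overlap, against 14.6% and 11.8% of all loci. In the SBF list 3 slopes passed (GIC2, EXG1 and CRH1), all positive, where 5.43% of all loci had a positive call. The G1 cyclin genes CLN1 and CLN2 had overlapping windows: CLN2 had 156, 148 and 172 FPKM, against 148, 145 and 147 FPKM, and CLN1 had a difference of 0.06. CLN3, the G1 cyclin gene that acts before them, had 54, 54.7 and 55.2 FPKM, against 64.5, 58.8 and 59.8 FPKM, without overlap, and its slope did not pass (adjusted p = 0.0723). Core histone genes were higher in 4 of 9 cases without overlap, none was lower, and 3 slopes passed (HTA1, HTB1 and HHT1). HHT1, a histone H3 gene, had 3603, 4785 and 4494 FPKM, against 3085, 2936 and 3024 FPKM, a separation of 0.50 whose slope did not pass without 190 min (adjusted p = 0.0602). HTA1, a histone H2A gene, had 3575, 3546 and 4211 FPKM, against 2357, 2660 and 3193 FPKM. Histone genes are short, with a median of 399 bp, and come in near-identical pairs between which reads could be split, so the values of single copies are uncertain. After the length correction 4 slopes of the list passed, and with a common sum none did.

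Later cell-cycle groups showed little. Of 26 genes of the mitotic Clb2 cluster, 5 were higher without overlap and none lower, against 14.6% and 11.8% of all loci. The list median was 0.04. The slopes of BUD8, a bud site gene, and of the acid phosphatase gene PHO3 passed, where 5.43% of all loci had a positive call. PHO3 had 19, 21.2 and 26 FPKM, against 13.9, 12.5 and 13.1 FPKM (0.69, adjusted p = 0.0764). Mitotic regulators overlapped, with CDC5 for the polo kinase at 28.9, 24.4 and 22 FPKM, against 27.6, 27.8 and 25.7 FPKM. In limma's test 0 slopes passed among 15 Hcm1 targets. In the comparison of the windows 2 of them were higher and 1 lower at an unadjusted p of 0.05, where 19.6% of all loci passed in either direction.

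Sugar uptake genes held the largest lower difference among loci of at least 300 bp without overlap, that of HXT1, the low-affinity glucose transporter gene (YHR094C, chromosome VIII, 290913 to 292625). It had 51.8, 54.1 and 56.3 FPKM at 180, 190 and 200 min, against 139, 107 and 89.4 FPKM at 130, 140 and 150 min, with 75.4 and 65.8 FPKM at 160 and 170 min. Each library was lower than the one before it up to 180 min. The late window was at 0.495 of the earlier one, a log2 difference of -1.01 (SE 0.15, 95% interval -1.38 to -0.65, adjusted p = 0.0756), and the slope of -0.98 passed (adjusted p = 0.00543). HXT3, another low-affinity transporter gene, had 408, 378 and 439 FPKM, against 646, 541 and 500 FPKM, and HXT4 had 36.5, 34.2 and 34.8 FPKM, against 47.6, 42.4 and 39.6 FPKM. Both were separate and both slopes passed (adjusted p = 0.0207 and 0.0138), the one of HXT3 not without 190 min (adjusted p = 0.052). HXT2, a high-affinity transporter gene of the glucose-repressed list, was also lower, at 581, 568 and 661 FPKM, against 888, 801 and 686 FPKM (slope adjusted p = 0.0506). HXT genes are close relatives, so reads could be split among them. In the list of 8 glucose-induced transporter and regulator genes, 4 were lower without overlap and 1, the repressor gene MIG1, was higher. The shares of all loci were 11.8% and 14.6%.

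Lipid genes were lower in part. Of 26 ergosterol genes, 9 had lower windows without overlap and none higher, and 6 slopes passed, all negative (6 negative and 1 positive without 180 min, 3 without 190 min, 9 after the length correction and 1 with a common sum). The list median was only -0.07. Of all loci, 11.8% were lower and 14.6% higher without overlap, and 4.11% had a negative slope call. HMG1, one of the HMG-CoA reductase genes at the rate-limiting step (chromosome XIII, 115734 to 118898), had 93.5, 83.4 and 91.1 FPKM at 180, 190 and 200 min, against 149, 125 and 120 FPKM at 130, 140 and 150 min. The windows were apart by -0.55 (adjusted p = 0.0837) and the slope of -0.54 passed (adjusted p = 0.00633). ERG26, a decarboxylase gene of the C-4 demethylation complex, had 110, 104 and 100 FPKM, against 145, 127 and 126 FPKM, and ERG28, the scaffold of the same complex, had 470, 422 and 456 FPKM, against 675, 619 and 542 FPKM. Both slopes passed (adjusted p = 0.00833 and 0.0101), as did those of ERG5, CYB5 and ERG8. ERG1 and ERG3 had overlapping windows and differences of -0.06 and -0.03.

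TCGTATA, the core of the sterol element bound by Upc2 and Ecm22, occurred in 9 of the 26 ergosterol promoters (34.6%), against 420 of 6008 (6.99%). It was in 3 of the 6 whose slope passed and in 6 of the 20 others. A stretch with it is given for ERG28 and CYB5, whose slopes passed, and for ERG1, whose windows overlapped, in the direction of the gene with the motif or its reverse complement in capitals.
ERG28 chrV:238276-238305 (minus strand): taacctaatctTATACGAactgaattaaac
CYB5 chrXIV:417559-417588 (minus strand): aaaaagaaagcTATACGAgatcgagatagt
ERG1 chrVII:848787-848816 (minus strand): gtagcgggcctTCGTATAgctcggccgagc

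Fatty acid genes followed the same course in a few members. OLE1, the fatty acid desaturase gene (chromosome VII, 398628 to 400160), had 161, 150 and 177 FPKM, against 324, 247 and 204 FPKM, after a maximum of 1321 FPKM at 80 min. FAS1, a subunit of fatty acid synthase, had 171, 146 and 170 FPKM, against 263, 224 and 197 FPKM. Both were separate (-0.64 and -0.48) and both slopes passed (adjusted p = 0.0246 and 0.015), the one of OLE1 not without 190 min (adjusted p = 0.0605). Of the 19 genes, 5 were lower and 3 higher without overlap, against 11.8% and 14.6% of all loci. The elongase gene ELO1 had a positive slope that passed (0.31, adjusted p = 0.0378).

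**Figure D4:**
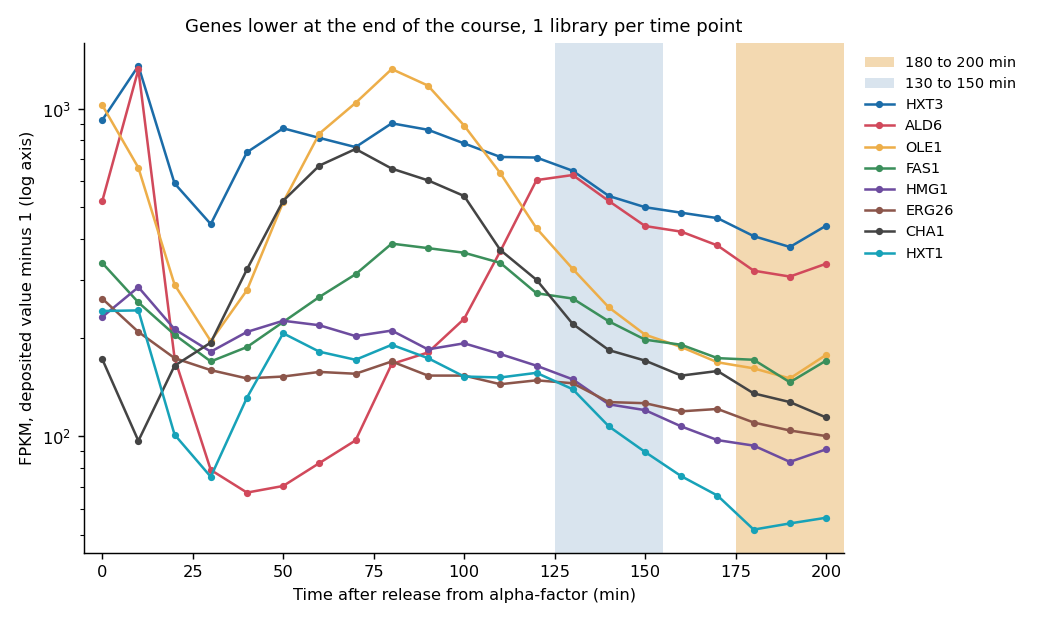
FPKM of 8 genes lower in the late window, at all 21 time points with 1 library each, on a log axis, with the windows of 180 to 200 min and 130 to 150 min shaded. HXT1 reaches 51.8 FPKM at 180 min, below every earlier value, and OLE1 and CHA1 are highest at 80 and 70 min.

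Among single metabolic genes, ALD6, the cytosolic acetaldehyde dehydrogenase gene (chromosome XVI, 432588 to 434090), had 320, 307 and 336 FPKM, against 627, 522 and 438 FPKM (-0.70, adjusted p = 0.0893, slope adjusted p = 0.00667). CHA1, the serine and threonine deaminase gene, had 135, 127 and 114 FPKM, against 220, 183 and 170 FPKM (slope adjusted p = 0.00532). SRD1, a gene linked to rRNA processing, had 26, 26.4 and 23.6 FPKM, against 42.8, 47.7 and 40.4 FPKM (-0.76, adjusted p = 0.0658, slope adjusted p = 0.00701). All 3 were separate, and all slopes also passed without 180 min and without 190 min.

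Many mating genes were lower. Of 25 pheromone response genes, 13 had lower windows without overlap and 1 a higher one, against 11.8% and 14.6% of all loci. The slopes of 7 passed, all negative (9 negative and 1 positive without 180 min, 4 without 190 min, none with a common sum), and the median difference was -0.14. FUS2, a cell fusion gene (chromosome XIII, 736926 to 738959), had 41.9, 38.4 and 34 FPKM at 180, 190 and 200 min, against 47.8, 52 and 49.7 FPKM at 130, 140 and 150 min. Most of its fall came earlier, from 343 FPKM at 0 min to 45.3 FPKM at 120 min. Its slope of -0.37 passed (adjusted p = 0.0145), as did those of FAR1, the inhibitor of G1 cyclin kinase, FIG1, CIK1, PRM2, PRM4 and PRM8, between -0.22 and -0.30. The pheromone precursor genes were erratic and very short. MFA1 had 640, 5001 and 1752 FPKM, against 1814, 1926 and 2420 FPKM, and MFA2 had 1329, 5294 and 1950 FPKM, against 3093, 2096 and 3199 FPKM. Both were lowest at 180 min and highest at 190 min, as were short genes in general, and their windows overlapped. The summed level of the 5 markers of MATa cells ran from 2595 to 11024 FPKM in the late window, against 4786 to 6381 FPKM in the earlier one, and that of the 4 alpha markers from 73.9 to 82.5 FPKM, against 67.2 to 75.3 FPKM, with MF(ALPHA)1 at 0.72 to 0.833 FPKM, against 0.471 to 1.11 FPKM. The 4 meiosis markers summed to 48.4 to 52.7 FPKM, against 38.9 to 46.7 FPKM.

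Several large groups had no slope call with all 8 libraries. No slope passed among 32 proteasome, 26 ribosomal protein and 24 glucose-repressed genes in limma's test, where 2, 1 and 4 members had higher and 2, 5 and 2 lower windows without overlap, and where the comparison of the windows called 0, with 2, 1 and 1 lower and 0 higher members at an unadjusted p of 0.05. The shares of all loci without overlap were 14.6% higher and 11.8% lower. Their medians were 0.04, -0.13 and 0.13. Those of the ribosomal protein and glucose-repressed genes were near the size of the pheromone response (-0.14) and MBF (0.14) medians. Without 180 min, 3 glucose-repressed slopes passed, all positive, where 8.5% of all loci had a positive call, and no proteasome or ribosomal protein slope did. Of 17 glycolysis genes 1 slope passed, that of PFK1 for phosphofructokinase, at 180, 161 and 195 FPKM, against 255, 226 and 208 FPKM. Of 20 Hsf1 chaperone genes the slopes of SSA4 and CPR6 passed, both negative, and neither did without 190 min (adjusted p = 0.0541 and 0.0587). Of 28 iron genes 3 slopes were positive (TIS11, FIT1 and CCC1) and 1 negative (FRE4). Of 19 thiamine and vitamin genes 3 were positive (THI7, PHO3 and SNO1), and of 13 DNA damage genes 2 (DDR48 and RNR4). These slope counts stand against 5.43% of all loci with a positive call and 4.11% with a negative one.

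An earlier step of the same 50 min sets 100, 110 and 120 min against 50, 60 and 70 min and shows how much changed before. Of 6150 loci, 760 (12.4%) passed in this step, with 436 higher (7.09%) and 324 lower (5.27%), and the median absolute log2 difference was 0.21, against 0.13 over the last step. No library is shared between the steps. In limma's test the earlier count was 0 without 50 or without 60 min (1557 and 1418 at an unadjusted p of 0.05) and 1344 without 120 min. With a common sum of FPKM the median of all loci moved to 0.32 and the calls to 1525 higher and 47 lower.

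The change over the last step differed from that over the earlier step for 514 of 6206 loci (8.28%) in a test of the difference itself, 233 higher (3.75%) and 281 lower (4.53%). It called 94 loci without 140 min, and with a common sum the median of all loci moved to -0.33 and the split to 13 higher and 510 lower, so the directions that follow hold for the deposited scaling. Of 32 proteasome genes, 11 had a lower signed change over the last step, with list medians of 0.04 over the last step and 0.46 over the earlier one. Of 10 lysine synthesis genes 5 did so, with medians of -0.15, the lowest of the 44 lists over the last step, and 0.55, and of 28 iron genes 9, with medians of -0.04 and 0.39. Of 30 ribosome assembly genes, 11 had a higher change over the last step, with medians of 0.06 and -0.37, and no member had a higher call with a common sum. DBP9, an RNA helicase gene of large subunit assembly, had 94.9, 95.2 and 95.3 FPKM at 180, 190 and 200 min, against 64.7, 71.5 and 73.7 FPKM at 130, 140 and 150 min. Its difference was 0.44 over the last step and -0.66 over the earlier one (difference 1.10, adjusted p = 0.00557). None of the 21 oxidative defence genes had a higher call in this test, and 2, OYE2 and YCF1, had a lower one. The Msn2 and Msn4 list had medians of 0.27 over the last step and 0.30 over the earlier one. For the trehalose and glycogen list they were 0.19 and 0.33, and for the pheromone response list -0.14 and -0.30.

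**Figure D5:**
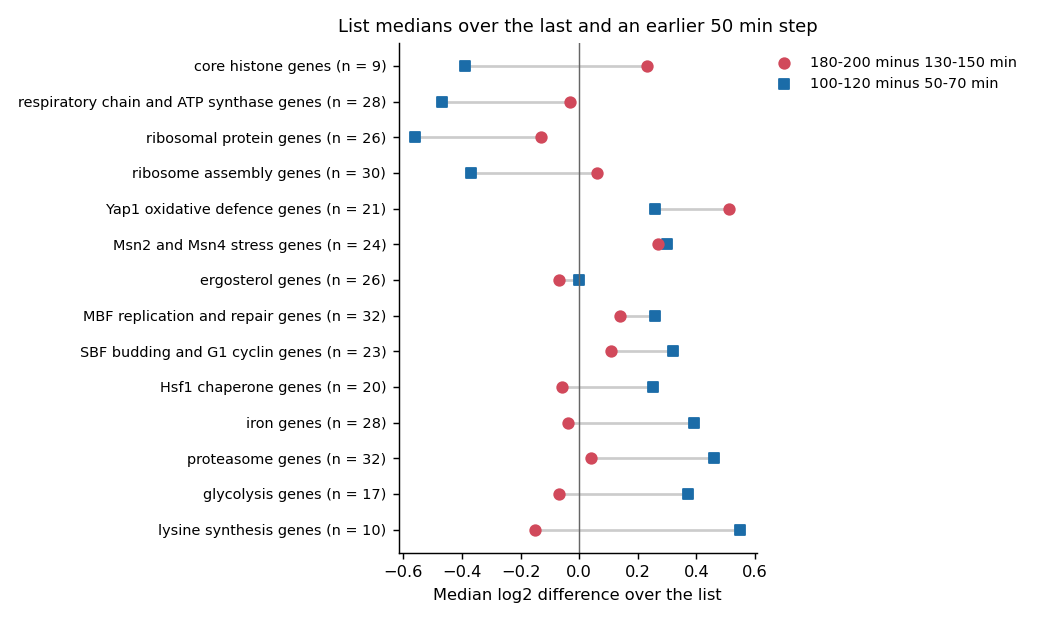
Median log2 difference of 14 lists over the last step (180 to 200 minus 130 to 150 min, red circles) and over the earlier step (100 to 120 minus 50 to 70 min, blue squares), on the deposited scaling. Proteasome and iron genes lie at 0.04 and -0.04 over the last step and at 0.46 and 0.39 over the earlier one, and lysine genes lie at -0.15 and 0.55.

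By size alone, the 15 loci of at least 300 bp with the largest higher difference and no overlap were PRX1, YDR029W, YMR254C, VAM10, YAL065C, HPF1, YGL088W, YHL005C, YPL080C, GRE2, TSA1, TRX2, SNO1, SPG4 and FYV12. Those with a Y name, VAM10 and FYV12 were under 8 FPKM in each of the 6 libraries, and 3 of the 15 overlap another gene. SPG4, a gene of stationary phase survival, had 28.1, 34.8 and 27.9 FPKM, against 12.7, 15.4 and 21 FPKM (0.87, slope adjusted p = 0.0241, and 0.0611 without 190 min), and SNO1, a vitamin B6 gene, had 5.06, 4.68 and 5.84 FPKM, against 1.47, 2.78 and 2.98 FPKM. The 15 largest lower ones were HXT1, YER181C, YLR413W, YBR027C, SRD1, ALD6, ATO3, NDJ1, FRE4, OLE1, CHA1, HUR1, YGR035C, RHR2 and RUF20, of which 1, HUR1, overlaps another gene. YLR413W had 28.6, 33 and 34.8 FPKM, against 79.3, 55 and 43.9 FPKM (-0.83, slope adjusted p = 0.0245). RHR2, a glycerol-3-phosphatase gene, had 185, 200 and 227 FPKM, against 385, 292 and 246 FPKM (-0.57, slope adjusted p = 0.0391, and 0.0847 without 190 min).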

How the data were processed

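RNA of 21 time points was sequenced from libraries of a stranded mRNA kit, per the labels' protocols; whether counting used strand is not given in the sources used here. STAR, Cufflinks, Cuffnorm and build R64 are named in the submitters' processing notes, without versions. The authors deposited FPKM with 1 added to each value. The unit was inferred from these tools and from the values, none of which was under 1, and the 1 was subtracted here. In the wild-type table, 50 columns are of other samples and were left out.

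Of 7126 loci, 528 were at 0 in all libraries, and 6207 (87.1%) were matched to the R64 annotation. No pair among 210 pairs of libraries held identical values. Values were analysed as log2(FPKM + 1), so fold changes are understated for low genes, with limma 3.58.1 in R 4.3.3 (moderated variances with a mean trend, Benjamini-Hochberg adjustment at 0.05 over all loci with a mean of at least 1 FPKM). The fits were tested on simulated data. Groups came from labelled times. The slope over 8 libraries was a listed alternative to the comparison of 3 with 3; the repeats of the slope and the length correction were chosen after seeing the data.

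The comparison, its members and the 44 lists (795 genes, 794 matched) were chosen with earlier results of these data known. The result of 1 list is not reported here. The naming rule took the cyclin and marker genes, up to 4 called or 2 largest members per list, the 15 largest loci of at least 300 bp in each direction and the 8 largest differences between steps, 121 genes in all. Further list members and snR35 were named after their values were seen. Promoter motifs were searched in 500 bases before coding starts. Leaving out libraries, other pseudocounts, filters and scalings were the main alternatives.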

Additional observations from a re-analysis of the deposited data

Results flagged for a closer look

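The change over the last step (180 to 200 minus 130 to 150 min) differed from that over the earlier step (100 to 120 minus 50 to 70 min) in limma's test of the difference, and the 8 largest differences among loci of at least 300 bp are given here as log2 values. ALD6 had -2.85, from -0.70 over the last step and 2.15 over the earlier one (adjusted p = 0.00699). The lysine synthesis genes LYS9 and LYS1 had -2.13 and -1.89 (adjusted p = 0.00159 and 0.00847), with 1.71 and 1.70 over the earlier step. YER181C, at most 2.76 FPKM in the windows of the last step, had -1.96 (adjusted p = 0.0289). CWP1 had -1.65 (adjusted p = 0.0247), TIS11, an mRNA-binding regulator of iron genes, had -1.53 (adjusted p = 0.0309) although it was higher in both steps (0.61 and 2.15), and the ferric reductase gene FRE4 had -1.49 (adjusted p = 0.00197). YCR022C alone had a positive value among the 8, 1.51 (adjusted p = 0.0139), from 0.73 over the last step and -0.78 over the earlier one.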

How the results depend on the processing

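No paired analysis was possible because the labels give 1 library per time point and no replicate numbers shared between the windows. For the last step, which called 1 locus, the count in limma's test was 0 with no filter on low values and 0 with no variance trend (1252 and 1190 at an unadjusted p of 0.05), 2 with a minimum of 10 FPKM, 3 with a common sum of FPKM, 7 after the length correction, 41 for genes of at least 300 bp, 96 with 12 libraries sharing a spread and 594 for the slope; leaving out 1 library gave 0 (without 200 min, 1004 at an unadjusted p of 0.05) to 292 (without 180 min). For the earlier step, with 760 calls, a common sum gave 1572 and leaving out 1 library 0 (without 50 or 60 min) to 1344 (without 120 min). With 1 library left out, the difference between the steps, with 514 calls, ran from 94 (without 140 min) to 585 (without 120 min). The slope, with 594 calls, gave 53 with a common sum and 119 (without 140 min) to 962 (without 180 min). With 1 library per time and no read counts, no setting gives an error between cultures. Over the named genes and their alternatives, 2030 values kept direction and side of the threshold, 114 passed only in the alternative, 22 lost the call and 16 changed sign. These 16 were near 0 or uneven. CLB3 had -0.01 with a common sum and after the length correction and -0.00 by the median ratio and in the slope, and CLB5 had -0.00 with a common sum. The others arose when 1 library was left out, over which CLB1 ran from -0.07 to 0.04, CLB3 from -0.02 to 0.03, CLB5 from -0.04 to 0.10, ARG4 from -0.01 to 0.08, MFA2 from -0.77 to 0.23, MF(ALPHA)2 from -0.45 to 0.02 and PRE6 from -0.06 to 0.40. Depth limits loci of a few FPKM most.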
